A study of Mus musculus with 2 samples.

Results

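The semaphorins, plexins and neuropilins of mouse were read out of total RNA-seq of the postnatal cerebral cortex. The set was every protein-coding gene with the symbol of a vertebrate semaphorin (Sema3 to Sema7), of a plexin (Plxna to Plxnd) or of a neuropilin (Nrp1 and Nrp2). It held 31 of 21901 protein-coding genes, namely 20 semaphorins, 9 plexins and 2 neuropilins. The tissue was left cerebral cortex of female B6CASTF1/J mice, the first-generation hybrid of C57BL/6J and CAST/EiJ, 4 days old and obtained from The Jackson Laboratory. The series held 1 group of 2 libraries, each made from 300 ng of RNA with ERCC spike-in RNAs added, and the design contrasted no condition. The labels number the tissue samples as separate biological replicates 1 and 2 but give both the same donor identifier. The spread between the libraries may therefore be that of animals, of tissue pieces or of library preparation.

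Semaphorins are secreted or membrane-bound guidance proteins, and plexins are their signalling receptors, whose intracellular part acts on small GTPases. Secreted class 3 semaphorins mostly bind a neuropilin, which passes the signal on through a plexin A, whereas membrane-bound classes bind plexins directly. In developing cortex these proteins steer axons, orient dendrites and trim synapses.

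Over annotated genes, replicate 1 had 29280730 expected counts and replicate 2 had 28809312. For a gene with no count, that depth leaves room for up to 3 counts. Intervals and this limit cover counting error only. Levels are given in TPM (counts divided by effective length and scaled to the same total in every library), so they can be set side by side between genes. Unless a library is named, levels are means ± SD over both libraries (n = 2). Excitatory cortical neuron markers were present, with Slc17a7 (the vesicular glutamate transporter of these neurons) at 139.8 and 145 TPM in replicates 1 and 2. The libraries stood apart in markers of other tissue, compared by an exact binomial test on counts with edgeR's TMM scaling and called where the adjusted p was under 0.05 and the log2 ratio 1 or more in size. Choroid plexus markers summed to 214 TPM in replicate 1 and 4.32 in replicate 2, and 4 of 5 were called higher in replicate 1. Most of the sum in replicate 1 was Ttr, at 206.4 and 1.94 TPM in replicates 1 and 2. Folr1, Kcnj13, Otx2 and Kl were low, at no more than 4.13 TPM (Folr1, replicate 1). Blood markers summed to 327 TPM in replicate 1 and 41.7 in replicate 2, and 3 of 3 were called. Markers of endothelium (73.3 and 78.0 TPM), meninges (266 and 278), microglia (29.7 and 34.8) and oligodendrocyte precursors (109 and 117) had no call. The part of these cells in the levels below was not tested. In tissue RNA, fewer cells of a type and less RNA per cell cannot be told apart.

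The sequences that carry the splicing results are shown here because the forms of Nrp2 and Sema6d differed by short coding parts. All are coding sequence of GENCODE M21 transcripts on the plus strand of mm10, written 5′ to 3′. In the Nrp2 inserts and the Sema6d exons, capitals mark the optional bases and small letters the bases on both sides in the spliced transcript. In the neuropilin ends, capitals mark the last 9 coding bases before the stop codon. The coordinates are those of the capitals for inserts and exons, and of all 60 bases for the ends.
Nrp2 insert of 15 bases (chr1:62786302-62786316): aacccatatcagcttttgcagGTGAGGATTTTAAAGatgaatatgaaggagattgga
Nrp2 insert of 51 bases (chr1:62812534-62812584): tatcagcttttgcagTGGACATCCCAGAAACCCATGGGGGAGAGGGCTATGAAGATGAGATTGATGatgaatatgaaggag
Nrp2 end of the a form (chr1:62815575-62815634): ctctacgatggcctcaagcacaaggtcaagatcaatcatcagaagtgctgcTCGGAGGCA
Nrp2 end of the b form (chr1:62795927-62795986): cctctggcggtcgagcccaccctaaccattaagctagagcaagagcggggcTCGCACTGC
Nrp1 end (chr8:128502752-128502811): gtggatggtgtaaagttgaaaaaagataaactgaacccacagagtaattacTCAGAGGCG
Sema6d exon of 57 bases (chr2:124660705-124660761): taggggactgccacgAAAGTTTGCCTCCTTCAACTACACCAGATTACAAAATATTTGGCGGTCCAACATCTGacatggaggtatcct
Sema6d exon of 168 bases (chr2:124662204-124662371): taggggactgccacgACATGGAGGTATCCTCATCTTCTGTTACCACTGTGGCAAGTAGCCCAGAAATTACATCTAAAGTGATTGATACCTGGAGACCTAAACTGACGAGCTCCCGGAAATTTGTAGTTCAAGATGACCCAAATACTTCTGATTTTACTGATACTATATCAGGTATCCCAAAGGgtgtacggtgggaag

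Detection meant 1 TPM or more in each library. By this measure 30 of the 31 genes were detected, where 59.8% of protein-coding genes were. A mean of at least 10 TPM was reached by 26 of the 31 genes (83.9%), where 39.5% of protein-coding genes reached it. The gene below detection was Plxnb3, and the 4 others under 10 TPM were the secreted ligands Sema3e, Sema3d, Sema3b and Sema3g. The order of the 31 levels ran from Plxna1 at 91.7 ± 2.59 TPM down to Plxnb3 at 0.745 ± 0.0636 TPM. Of the 30 neighbours in that order, 19 had ranges that overlapped between the libraries, so ranges alone did not order them, and 11 did not. A gene could still be above its neighbour within each library, as Plxna3 (71.0 and 94.2 TPM) was above Sema6c (62.6 and 77.1 TPM). Genes between Plxnd1 and Plxna4 formed an unbroken chain of overlapping ranges, as did those between Sema6b and Sema6d and those between Nrp1 and Sema4f. The gaps set the range of Plxna1 above that of Plxnd1 and kept Sema3e, Sema3d, Sema3b, Sema3g and Plxnb3 apart from each other. Only neighbours were compared in this way, and the range of Plxna3, next below Plxnd1, covered that of Plxna1.

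**Figure D1:**
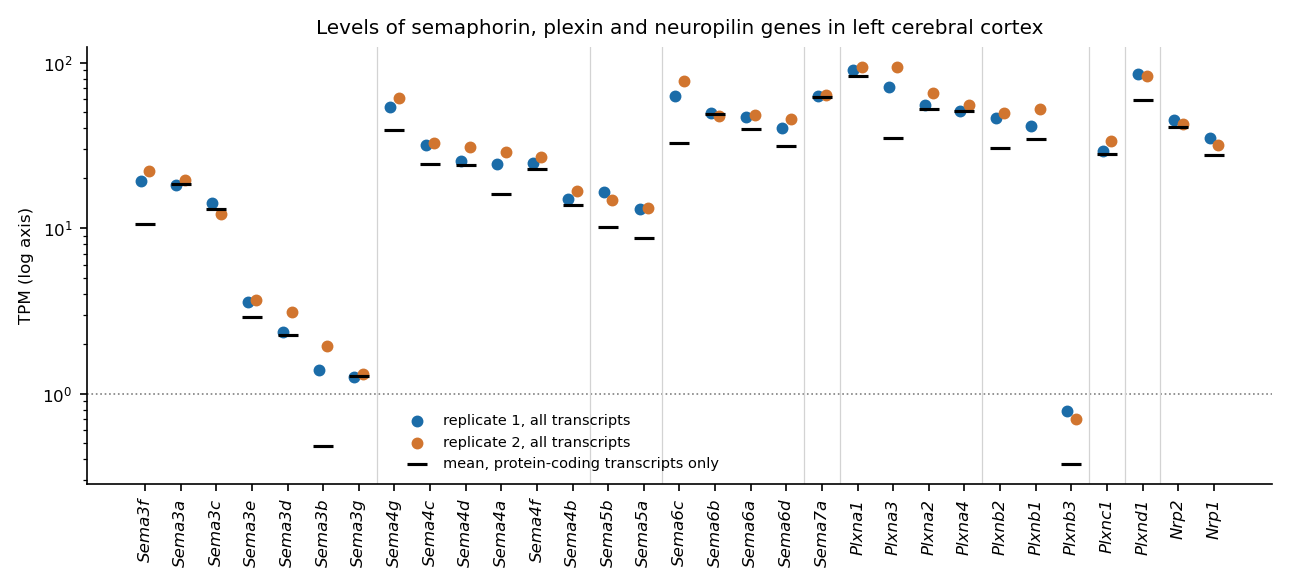
Levels of the 31 genes in TPM on a log axis, grouped by class, with a point for each library and a bar for the mean over transcripts annotated as protein coding. The dotted line is the detection level of 1 TPM. Plexins and class 4, 6 and 7 semaphorins lie above 10 TPM except Plxnb3, and 4 of the 7 class 3 semaphorins lie below 10 TPM. Sema3b, Plxna3 and Sema6c have the bar well below the points.

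The secreted class 3 ligands were the lowest of the multi-gene semaphorin classes, with a median of 3.64 TPM over 7 genes. Sema3f, a repellent that acts through Nrp2 (chromosome 9, 107681500 to 107710475), was at 19.4 TPM (replicate 1) and 22.2 TPM (replicate 2). Sema3a, which repels axons and draws apical dendrites of pyramidal neurons (ENSMUSG00000028883.17, chromosome 5, 13125414 to 13602565), was at 18.3 and 19.7 TPM. Sema3f was slightly above Sema3a within each library, but their ranges across libraries overlapped. Sema3c, which guides callosal axons, was at 14.3 and 12.2 TPM, below both in each library. Sema3e, the ligand that binds plexin D1 without a neuropilin, had 453 and 425 counts and a mean of 3.64 ± 0.0566 TPM. The remaining class 3 genes were Sema3d at 2.36 and 3.11 TPM, Sema3b at 1.39 and 1.93 TPM and Sema3g at 1.26 and 1.31 TPM. The class thus split into 3 genes above 10 TPM and 4 under 4 TPM with nothing between. Chromosomes 5 and 9 each hold genes of both sets, and Sema3g lies on chromosome 14. The part of position in the levels was not tested. Sema3d, Sema3a, Sema3e and Sema3c lie in this order on the plus strand of chromosome 5, with gaps of 536, 423 and 3318 kb, and both of the genes above 10 TPM there have a lower neighbour. Sema3b and Sema3f lie 72.3 kb apart on the minus strand of chromosome 9.

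Class 4 ligands, membrane proteins with an immunoglobulin domain, were all detected and ran from 15.9 to 57.4 TPM by mean. Sema4g was at 53.8 and 61.0 TPM in replicates 1 and 2, above every other class 4 gene in both libraries. Sema4c, a ligand of plexin B2, was at 31.6 and 32.5 TPM, and Sema4d, a ligand of plexin B1, at 25.3 and 31.0 TPM. Sema4a was at 24.3 and 28.9 TPM, Sema4f at 24.7 and 26.8 TPM, and Sema4b at 15.01 and 16.86 TPM. Sema4d, Sema4a and Sema4f overlapped each other, and Sema4b was below all of them in both libraries. Every class 4 gene had its higher TPM in replicate 2, as did 24 of all 31 genes. Detected protein-coding genes leaned the same way, with a median log2 ratio of TPM (replicate 1 over replicate 2) of -0.0634. By TMM-scaled counts, Sema4c (ratio of replicate 1 over replicate 2 of 1.106) and Sema4f (1.009) were higher in replicate 1. The other class 4 genes were lower there. By class, the sum was 175 TPM in replicate 1 and 197 TPM in replicate 2.

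Class 5 semaphorins, membrane proteins with thrombospondin repeats, were at the low end of the detected ligands. Sema5b was at 16.5 and 14.9 TPM in replicates 1 and 2, and Sema5a at 13.1 and 13.2 TPM. Sema5b was above Sema5a in both libraries, with a log2 ratio of TPM + 1 (Sema5a over Sema5b) of -0.24 ± 0.11 (SD, n = 2).

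The class 6 ligands, membrane proteins that signal to plexin A receptors, held the largest class sum of the ligands, 199 TPM in replicate 1 and 218 TPM in replicate 2. Sema6c was at 62.6 and 77.1 TPM, the widest spread among them. Sema6b was at 49.6 and 47.5 TPM, and Sema6a, a ligand of plexins A2 and A4, at 46.9 and 48.2 TPM. Sema6d, a ligand of plexin A1, was at 40.2 and 45.4 TPM. All 4 genes were thus above 40 TPM in both libraries, and Sema6d was the lowest in each. Sema7a, the single ligand anchored by a lipid and a partner of plexin C1 and beta-1 integrin (chromosome 9, 57940112 to 57962865), was at 62.7 and 63.6 TPM, with a spread of 0.629 TPM (SD, n = 2).

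Plexin A receptors, which carry neuropilin-dependent and class 6 signals, had the highest sum of any class, 267 TPM in replicate 1 and 309 TPM in replicate 2. Plxna1 (ENSMUSG00000030084.11, chromosome 6, 89316314 to 89362620) was at 89.8 and 93.5 TPM. Plxna3, which pairs with Nrp2 in the response to Sema3f (ENSMUSG00000031398.13, chromosome X, 74329066 to 74344689), was at 71.0 and 94.2 TPM, so its range covered that of Plxna1. Plxna2, a receptor of Sema6a, was at 55.6 and 65.5 TPM. Plxna4, which pairs with Nrp1 in the response to Sema3a, was at 51.0 and 55.8 TPM. All 4 plexin A genes were higher in replicate 2 by TPM, as were 24 of all 31 genes, and detected protein-coding genes leaned that way by median. By TMM-scaled counts, Plxna1 (ratio of replicate 1 over replicate 2 of 1.021) and Plxna4 (1.006) were higher in replicate 1, and Plxna2 and Plxna3 lower.

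Plexin B receptors divided into 2 abundant genes and 1 near the detection level. Plxnb2 was at 46.2 and 49.8 TPM in replicates 1 and 2 and Plxnb1 at 41.2 and 52.2 TPM, with overlapping ranges. Plxnb3, a receptor of Sema5a (chromosome X, 73757090 to 73772514), was at 0.79 and 0.70 TPM, from 81 and 75 counts. Plxnc1, the receptor of Sema7a, was at 29.2 and 33.4 TPM. Plxnd1, the receptor of Sema3e that is also known from blood vessels (ENSMUSG00000030123.15, chromosome 6, 115954811 to 115995005), was at 85.8 and 82.9 TPM, with rank 2 by mean here, rank 3 over protein-coding transcripts and rank 6 by the second of the deposited quantifications. Endothelial markers were lower, from 5.73 TPM for Tek to 40.7 TPM for Cldn5 by mean, and the part of endothelium in the level of Plxnd1 was not tested.

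Neuropilins bind the ligand but have too short an intracellular part to signal alone. Nrp2 (ENSMUSG00000025969.15, chromosome 1, 62703285 to 62818695) was at 45.3 and 42.8 TPM in replicates 1 and 2, and Nrp1 (ENSMUSG00000025810.9, chromosome 8, 128358604 to 128503363) at 35.2 and 31.6 TPM. Nrp2 was above Nrp1 in both libraries, and the log2 ratio of TPM + 1 (Nrp1 over Nrp2) was -0.39 ± 0.05 (SD, n = 2). The sum of both was 80.4 TPM in replicate 1 and 74.4 TPM in replicate 2, well under the plexin A sum in each library.

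In 22 chosen pairs, 13 of paralogs and 9 of a ligand with a known receptor, a pair was called apart where both libraries gave a log2 ratio of TPM + 1 beyond 1 in the same direction. Apart were 5 pairs. An exact sign test over 2 libraries cannot go below p = 0.5, so these calls carry no p-value. In the ligand and receptor pairs the receptor was higher in 7 of 9. Sema3e was below its receptor Plxnd1 by the widest margin, with log2 ratios of -4.24 and -4.16 in replicates 1 and 2, and Sema6d was below Plxna1 by -1.14 and -1.03. The pair Sema5a over Plxnb3 stood the other way, at 2.98 and 3.06. Plxnb1 over Plxnb3 was at 4.56 and 4.97, and Plxnb2 over Plxnb3 at 4.72 and 4.90. The low levels of Sema3e and Plxnb3 thus entered 4 of the 5 pairs apart.

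Sema7a over Plxnc1 was at 1.08 and 0.91, and Sema3f over Nrp2 at -1.18 and -0.92, so replicate 1 alone placed both beyond the threshold. The other ligands were below their receptor by less: Sema3a over Nrp1 at -0.78 ± 0.18, Sema4d over Plxnb1 at -0.71 ± 0.04, Sema4c over Plxnb2 at -0.57 ± 0.05 (but 0.27 by the second of the deposited quantifications) and Sema6a over Plxna2 at -0.34 ± 0.14 (SD, n = 2). Among plexin A genes, Plxna1 over Plxna4 was at 0.77 ± 0.05 and Plxna1 over Plxna2 at 0.59 ± 0.13. Plxna3 over Plxna4 was at 0.61 ± 0.20, Plxna2 over Plxna3 at -0.43 ± 0.12 and Plxna2 over Plxna4 at 0.17 ± 0.08. Plxna1 over Plxna3 (0.34 in replicate 1 and -0.01 in replicate 2) and Plxnb1 over Plxnb2 (-0.16 in replicate 1 and 0.07 in replicate 2) changed sign between the libraries. Sema3a over Sema3f was at -0.12 ± 0.06 and Sema6a over Sema6d at 0.15 ± 0.09.

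**Figure D2:**
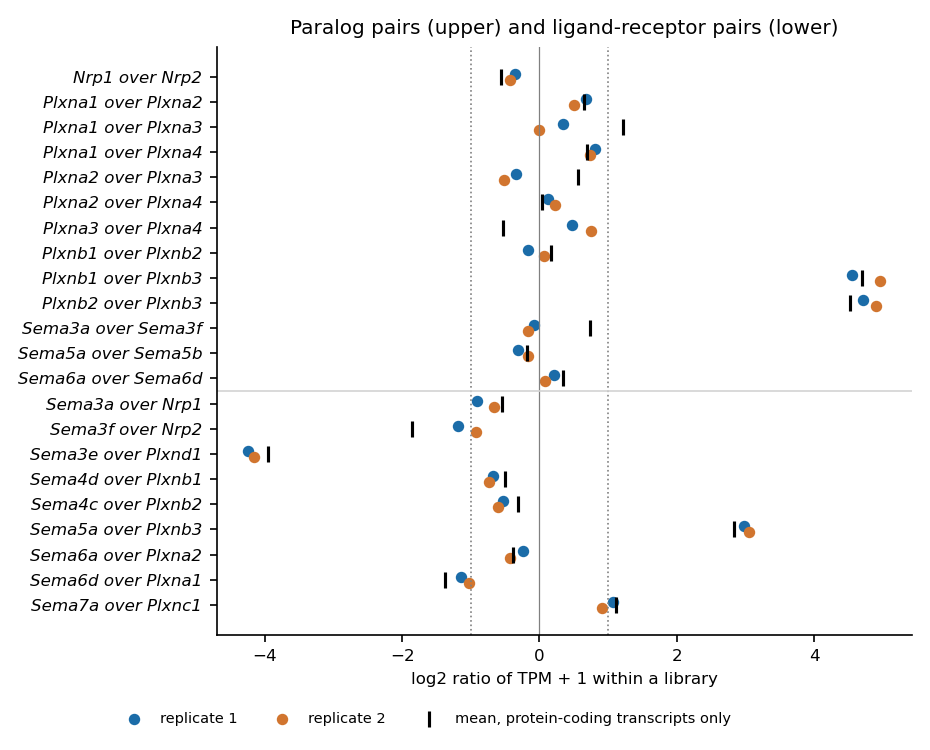
Log2 ratio of TPM + 1 within each library for 13 paralog pairs (upper) and 9 ligand and receptor pairs (lower), with a bar for the mean over protein-coding transcripts alone. The dotted lines mark ratios of 1 in size. The 5 pairs apart lie outside the lines in both libraries, and the bars of Plxna2 over Plxna3, Plxna3 over Plxna4 and Sema3a over Sema3f lie on the other side of 0.

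The annotation lists 226 transcripts for the 31 genes, of which 100 are annotated as protein coding, 76 as retained intron and 17 as targets of nonsense-mediated decay, which removes RNAs with an early stop. The authors deposited transcript levels from 2 quantifiers, the first working from reads aligned to the transcriptome and the second directly from the reads, and values are from the first unless the second is named. A gene's TPM sums all of its transcripts, and short fragments such as many retained intron entries weigh more in TPM than in reads. Transcripts without the protein-coding label held over 20% of a gene's TPM in 14 of the 31 genes, and in 11 of these also in the table of the second quantifier. The share of all protein-coding genes beyond this cut was not worked out, so these counts stand without a background. Plxna3 had the largest retained intron share among genes above 10 TPM, 56.0% ± 3.98 (SD, n = 2), and 53.6% by the other quantifier. By reads the picture was another: the single complete coding transcript, Plxna3-201, held 4347 of 5103 counts in replicate 1 and 4757 of 5755 in replicate 2. Over protein-coding transcripts alone, Plxna3 was at 32.7 and 37.6 TPM in replicates 1 and 2, rank 10 in place of rank 3.

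Sema6c moved the same way, to 32.8 and 32.6 TPM in replicates 1 and 2 over protein-coding transcripts, rank 12 in place of rank 4. These values were alike in both libraries, and the coding share of its TPM was 52.4% in replicate 1 and 42.3% in replicate 2. Plxnd1 (59.5 ± 1.41 TPM), Plxnb1 (34.6 ± 4.02 TPM) and Plxnb2 (30.5 ± 0.955 TPM) were also lower over coding transcripts, while Plxna1 stayed highest at 83.0 ± 2.46 TPM and Sema7a took rank 2 at 62.2 ± 1.39 TPM. With these levels Plxna3 was below Plxna4 (log2 ratio -0.53) and below Plxna2 (Plxna2 over Plxna3 at 0.57), and Sema3a was above Sema3f (0.74). The order within plexin A and between these ligands thus depended on which transcripts were counted.

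The quantifiers differed most for the retained intron share of Plxnd1, 29.4% ± 3.41 by the first and 3.50% ± 0.2496 by the second. Retained intron transcripts held 34.7% of Sema5b TPM by the first quantifier and 37.3% by the second, and 28.4% and 28.7% of Sema5a TPM. For Plxnb1 the shares were 25.6% and 38.6%, and for Sema4c 23.98% and 39.99%. Sema6b (2 transcripts) and Sema3g (1 transcript) have only entries annotated as protein coding, so their coding share could only be 100%. Sema3b was the gene whose leading transcript was not a coding one: Sema3b-206, annotated as a decay target, held 60.3% ± 16.4 of a total of 1.66 TPM.

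Over all 31 genes the median share of TPM on protein-coding transcripts was 86.1% in replicate 1 and 74.7% in replicate 2, and over detected protein-coding genes it was 89.6% and 87.5%. The share was higher in replicate 1 by over 1 percentage point for 21 of the 31 genes and lower by as much for 7, where the same held for 41.3% and 21.3% of detected protein-coding genes. That background is an unlike one. It includes genes with a single transcript, whose share cannot differ, while 30 of the 31 genes have several transcripts. The widest differences among detected genes were those of Sema3d, at 93.6% in replicate 1 and 74.6% in replicate 2, and Sema6d, at 80.9% and 66.4%.

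**Figure D3:**
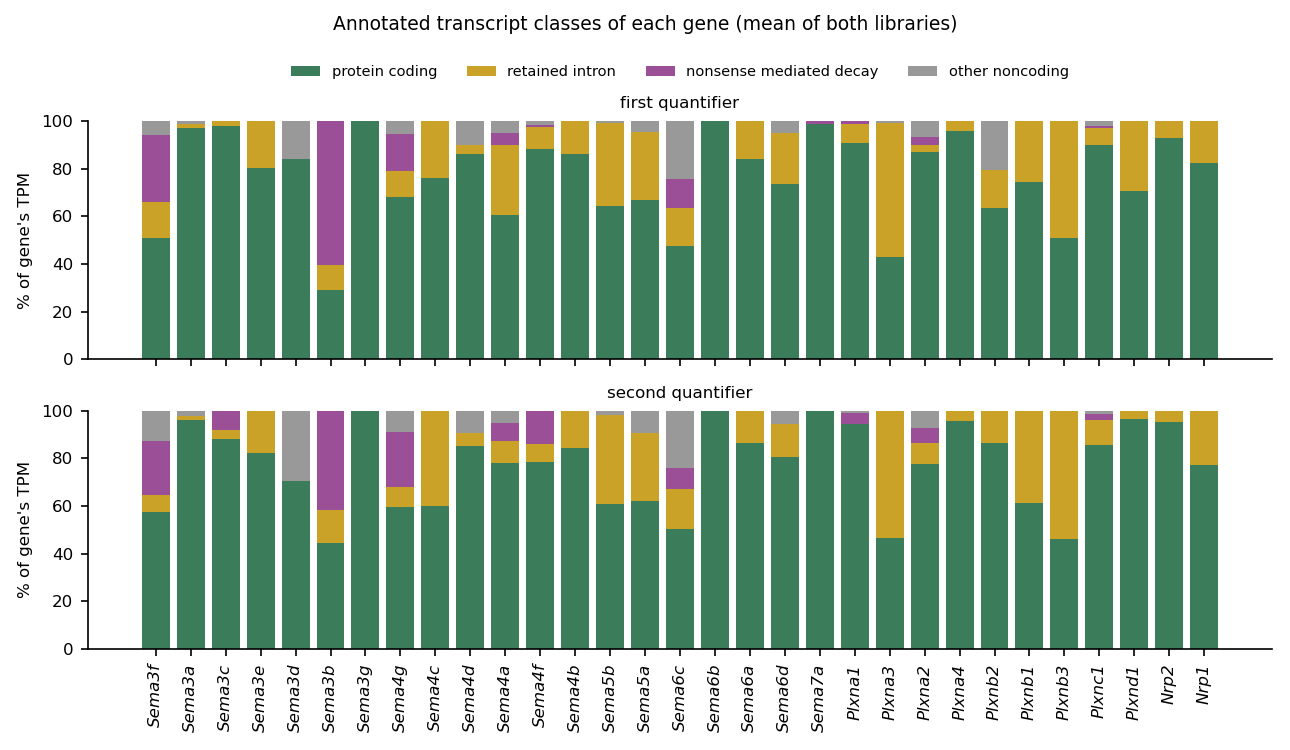
Share of each gene's TPM by annotated transcript class, as the mean of both libraries, for the first quantifier (upper) and the second quantifier (lower). Retained intron transcripts take 56.0% of Plxna3 TPM in the upper panel and 53.6% in the lower, while the share of Plxnd1 is 29.4% in the upper panel and 3.50% in the lower. Sema6b and Sema3g have only protein-coding entries in the annotation, so their bars could show no other class.

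Of the 30 genes with several annotated transcripts, 24 had the same leading transcript in both libraries and in both tables. The leading transcript held at least 80% of the gene's TPM in 11 genes in the first table, among them Sema7a (98.5% ± 1.21), Plxna4 (95.9% ± 2.42), Sema6b (91.5% ± 1.29), Plxna1 (90.4% ± 0.427) and Nrp1 (82.2% ± 5.40). The 6 genes without a common leading transcript were Sema3b, Plxnb3, Sema4g, Sema4c, Sema4d and Sema4a, so 4 of the 6 class 4 ligands were among them. In Sema4c the first quantifier put the coding Sema4c-208 in front, and the second put Sema4c-206, a retained intron fragment of 618 bases. In Sema4d the first favoured the full-length Sema4d-201, and the second favoured Sema4d-204, whose annotated coding part of 555 bases lacks its start. Sema4g-201 and Sema4g-203, which led in different libraries of the second table, encode the same 837 amino acids, so that change concerned the transcript and not the coding sequence. The leading transcript of Sema4a also differed between libraries in the second table, at 19 annotated transcripts and a share of 27.6% ± 8.24 for Sema4a-201 in the first table.

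The annotation gives several complete coding sequences for few of the genes. Among transcripts with a complete coding sequence, 73 in all, 23 genes had a single annotated coding form and 8 had several. All 9 plexins and Nrp1 had a single annotated form, so form shares could not vary there. Coding entries annotated as incomplete were left out, and unannotated forms could not be seen. The second annotated form of Sema3d had 0 TPM by either quantifier. In the following, shares are of the TPM of complete coding transcripts.

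Nrp2 had 6 annotated coding forms, built from a choice of last exons and the 2 inserts printed above. The a end was in 72.2% of coding TPM in replicate 1 and 70.2% in replicate 2, and the b end in 27.8% and 29.8%. The second quantifier gave 71.4% ± 0.442 and 28.6% ± 0.442 (SD, n = 2), within the spread of the first. The insert of 51 bases was in 24.3% ± 1.62 of coding TPM and the insert of 15 bases in 14.8% ± 2.20, and the second quantifier gave 23.1% and 14.7%. The most abundant form, of 909 amino acids, had the a end and no insert and held 36.3% ± 0.748. Next came the b end with no insert (27.1% ± 2.90), the a end with the long insert (21.8% ± 1.45) and the a end with the short insert (10.7% ± 0.560). By the second quantifier these forms held, in turn, 38.7% ± 2.80, 25.7% ± 2.86, 20.9% ± 1.14 and 9.68% ± 3.63. The spread of the first and last of them was wider there. Both inserts together were in 2.43% ± 0.169, and the b end with the short insert was in 2.69% in replicate 1 and 0.617% in replicate 2. The long insert is annotated only with the a end.

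The ends themselves differ in sequence. Set against each other from the stop codon without gaps, the last 60 coding bases of Nrp1 and of the a form of Nrp2 shared 29 bases, and the last 9 bases, in capitals above, shared 7. Nrp1 and the b form shared 15 of 60 and 3 of 9, and the a and b forms shared 20 of 60 and 4 of 9. The end of Nrp1 is known to bind the PDZ protein encoded by Gipc1, which was at 37.6 ± 1.14 TPM here. The end closer in sequence to that of Nrp1 was thus in the larger share of Nrp2 coding TPM.

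Sema6d also had 6 coding forms. The form of 998 amino acids without the optional exons held 44.8% ± 2.19 of coding TPM. The exon of 57 bases was in 41.2% and 40.8% in replicates 1 and 2 (second quantifier 39.7% ± 1.18). The exon of 168 bases, or a shorter version of 156 bases with the same start, was in 39.1% and 42.1% (second quantifier 39.9% ± 0.261). Its full version of 168 bases alone was in 34.1% ± 5.16 (second quantifier 28.4% ± 1.27). The exon of 57 bases occurred with either version of the other exon in 29.5% ± 2.99 by the first quantifier and 22.6% ± 3.83 by the second. Of this, the form with the full version, of 1073 amino acids, held 23.1% ± 6.01 by the first and 11.2% ± 5.36 by the second. An extension of 39 bases to another exon (chromosome 2, 124660244 to 124660282) was in 14.5% ± 0.0526, against 20.1% by the second quantifier.

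Sema6a had an optional stretch of 165 coding bases in 62.2% ± 0.0675 of coding TPM (second quantifier 62.1% ± 2.42). Sema3f had one of 93 bases (chromosome 9, 107691356 to 107691448, minus strand), in 21.1% and 33.0% in replicates 1 and 2, from a gene with 868 and 905 counts. The second quantifier gave 31.9% and 35.7%, so this share was less settled than those of Nrp2. In Sema5b, the form of 1093 amino acids held 84.4% ± 5.01 and that of 1122 amino acids 15.6% ± 5.01. In Sema6c, Sema4a and Sema3d a single coding form held at least 97.2% by mean.

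**Figure D4:**
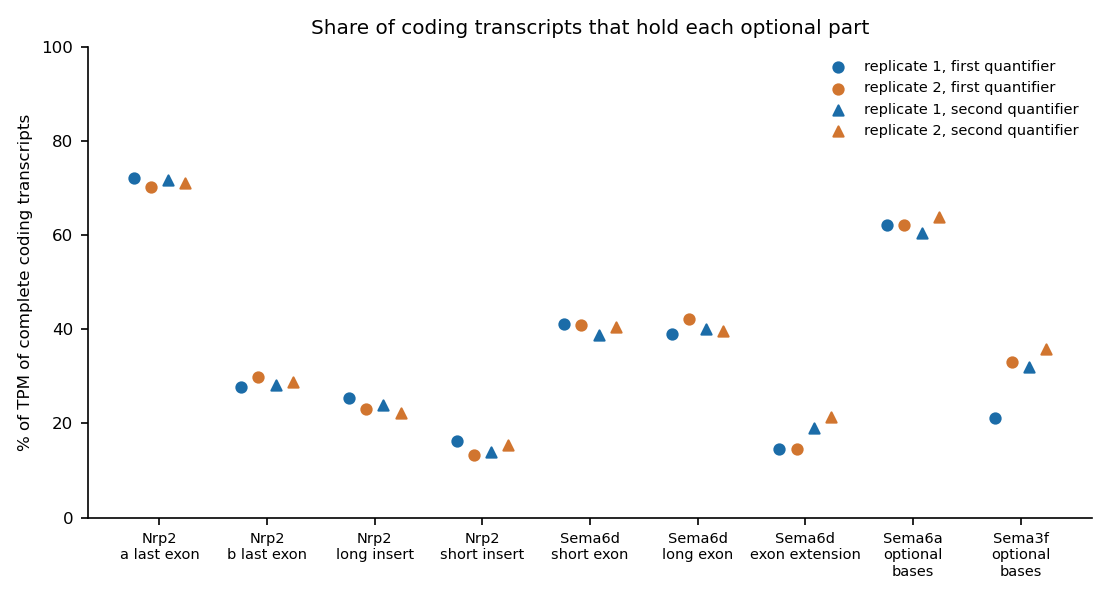
Share of the TPM of complete coding transcripts that contain each optional part, with a point for each library (colour) and quantifier (circle for the first, triangle for the second). The Sema6d long exon is shown for both of its versions together. The 4 points of each Nrp2 part lie within a few percentage points, whereas the Sema6d exon extension and the Sema3f bases differ between quantifiers or libraries.

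Around the ligands and receptors, 48 genes from 3 lists of partners were read out, and 46 were detected. Co-receptors and other semaphorin receptors (12 of 14 detected, median 13.7 TPM) were led by adhesion proteins that associate with neuropilins. L1cam was at 250.4 and 287.8 TPM in replicates 1 and 2, Chl1 at 250.7 and 259.96 TPM and Nrcam at 152 and 171 TPM, all above every plexin and neuropilin. The lowest were Timd2 (0.06 ± 0.04 TPM) and Cd72 (0.08 ± 0.11 TPM), semaphorin receptors known from immune cells. Cytoplasmic partners of plexins and neuropilins were detected in 24 of 24 cases, with a median of 38.9 TPM. Cfl1, the actin-severing protein cofilin at the end of this pathway, was at 1096 ± 45.1 TPM, the GTPase gene Rac1 at 211 ± 6.58 TPM and Farp1, a plexin A partner, at 116 ± 4.11 TPM. The lowest were Fes (2.43 ± 0.205 TPM), a kinase, and Sh3bp1 (2.53 ± 0.184 TPM), a Rac-inactivating protein.

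Collapsin response mediators, through which the Sema3a signal reaches microtubules, and their kinases were all detected (10 of 10) and had the highest median, 165 TPM. Dpysl3 was at 1061 ± 10.8 TPM, Crmp1 at 764 ± 7.76 TPM and Dpysl2 at 759 ± 9.84 TPM. The lowest were Rock1 (15.9 ± 3.52 TPM) and Rock2 (23.9 ± 3.56 TPM), kinases downstream of RhoA. Of the 48 genes, 46 had enough counts to be tested between the libraries (Timd2 and Cd72 did not), and none was called in either direction, where 2.88% of all tested genes were. Without the size limit 20 of the 46 passed at an adjusted p under 0.05 in the exact binomial test, 16 higher and 4 lower in replicate 1, where 25.1% of all tested genes passed. The widest log2 ratio among the 20 was 0.33 in size.

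The libraries were compared gene by gene on expected counts by the exact test already used for the markers. It was a conditional binomial test, two-sided, with edgeR's TMM scaling and Benjamini-Hochberg adjustment over 18482 genes, and the same rule made a call. It sets library against library and says nothing of a condition. None of the 31 genes was called, against the same 2.88% of all tested genes. At an unadjusted p under 0.05 there were 11 of the 31, where 34.6% of all tested genes were. By adjusted p without the size limit there were 8 (25.8%), where 25.1% of all tested genes passed, so the set was near the background. The highest ratio of scaled counts, replicate 1 over replicate 2, was 1.20 and the lowest 0.900. The median log2 ratio was 0.0669 in size over the 31 genes, 0.144 over all tested genes and 0.111 over detected protein-coding genes.

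Higher in replicate 1 without the size limit were 6 genes, where 13.3% of all tested genes were. Nrp1 had 2333 counts in replicate 1 and 1973 in replicate 2, a ratio of 1.20 (exact 95% interval 1.13 to 1.28, adjusted p = 6.18e-08 in the exact binomial test). Nrp2 had 5451 and 4843 counts, a ratio of 1.14 (1.10 to 1.19), so both neuropilins were among the 6. Sema3c had 1300 and 1097 counts, a ratio of 1.20 (1.11 to 1.30). The other 3 were Sema6b (1.115), Sema4c (1.106) and Sema5a (1.087). Sema4c and Sema5a no longer passed under median-of-ratios factors or total counts, and Sema5a not without the count minimum. Lower in replicate 1 were 2 genes, where 11.9% of all tested genes were. They were Plxna3, with 5103 and 5755 counts and a ratio of 0.900 (0.867 to 0.935), and Plxna2, with 10750 and 11844 counts and a ratio of 0.921 (0.898 to 0.946). Choroid plexus and blood markers were higher in the same library as the neuropilins, and their part in these differences was not tested.

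Counts and TPM did not always point the same way. By counts 19 of the 31 genes were higher in replicate 1 and 12 lower, whereas by TPM 7 were higher and 24 lower, so 12 genes had opposite signs. The share of all genes with each sign was not worked out, so these counts stand without a background. The median log2 ratio of TPM was -0.108 over the 31 genes and -0.0634 over detected protein-coding genes. Sema6d had 3830 and 3779 counts in replicates 1 and 2 but 40.2 and 45.4 TPM, and its coding share of TPM was the lower in replicate 2. Plxnb1 had 4020 and 4112 counts, a ratio of 0.992, beside 41.2 and 52.2 TPM. The spread of TPM given with the levels above is therefore wider for such genes than the spread of their counts.

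**Figure D5:**
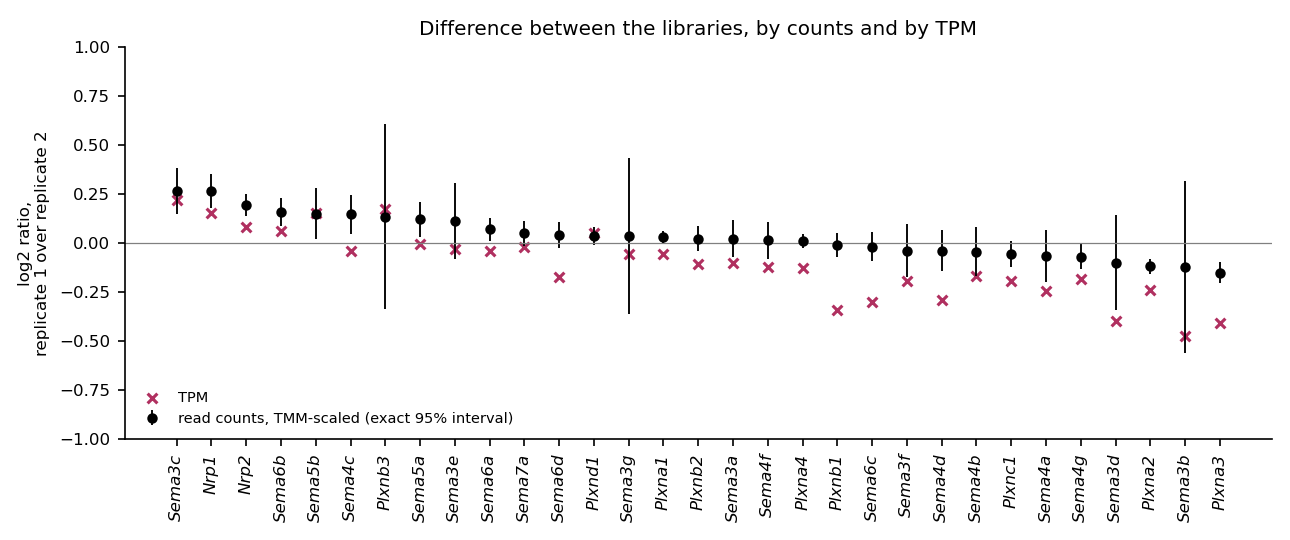
Log2 ratio of replicate 1 over replicate 2 for each of the 31 genes, by TMM-scaled counts (points with exact 95% intervals) and by TPM (crosses), ordered by the count ratio. No count ratio exceeds 0.267 in size on this scale, from Sema3c and Nrp1 at the left to Plxna3 at the right, and most crosses lie below their point.

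Gene counts of the 31 rested on reads that the first quantifier could place. Its posterior standard deviation of the gene count was 0 in both libraries for 29 of the 31 genes, with Plxnc1 (0.46 and 0.57 counts) and Sema3a (3.26 and 3.12 counts) the exceptions. Annotated genes overlap the span of 18 of the 31 on either strand, introns included, among them the opposite-strand genes of Plxna4. No source used here says whether counting used the strand, and whether reads from such partners entered the counts was not tested. The shares of all genes with a posterior standard deviation of 0 or with an overlapping gene were not worked out.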

How the data were processed

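Total RNA-seq libraries of left cerebral cortex, 1 group with replicates 1 and 2 per the labels, came with 3 deposited tables each, on assembly mm10 and GENCODE M21 per the deposited file descriptions. The first quantifier's gene and transcript tables hold expected counts and TPM with the column names of RSEM, per the file headers; the second quantifier's table holds estimated counts and TPM with those of kallisto. The aligner, the quantifiers' versions and the strand setting: not given in the sources used here. The authors' posterior score (the standard deviation of each count) was used as deposited; the deposited percent of each transcript in its gene was recomputed here from TPM. The deposited TPM is scaled over all entries, spike-ins included.

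Spike-ins and unnamed entries were left out of gene tests and library sizes. Expected counts were rounded for the binomial test, which needed a summed count of at least 20, added 0.5 per count for log2 ratios and used TMM factors of 0.984 and 1.02 from edgeR 4.0.16 (R 4.3.3). Quasi-likelihood tests need replicates in contrasted groups and were not run. Scaled ratios have exact 95% intervals. Pair ratios used a pseudocount of 1. The test was tried on simulated counts. Python 3.11.15, numpy 2.4.6, pandas 2.3.3, scipy 1.17.1 and matplotlib 3.10.9 were used otherwise. Sequences and coding lengths came from the GENCODE M21 transcripts, and CAST/EiJ variants were not modelled.

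The genes, lists, pairs and thresholds were chosen with earlier results of these data known. Named in full were genes of the set at a mean of at least 10 TPM or below detection, every pair, genes called between libraries, genes without a common leading transcript, and the 3 highest and 2 lowest of each partner list. Splice parts and genes named for coding share were chosen after their values were seen. Alternatives were other detection thresholds, pseudocounts, scalings, the second quantifier, coding transcripts alone and each library alone.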

Additional observations from a re-analysis of the deposited data

How the results depend on the processing

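The count of detected genes was 30 with either library alone and lay between 28 and 31 under the other thresholds and scalings, with the second quantifier and over protein-coding transcripts. Detection asked for both libraries and rescaling raises every level, so neither a library alone nor rescaling could lower the count. The 5 pairs apart were the same 5 under both other pseudocounts, with the second quantifier, with TPM rescaled over protein-coding genes and without replicate 1. Rescaling multiplies all genes of a library by the same factor, so it could hardly change a ratio. Leaving out each replicate in turn gave 5 to 7 pairs: without replicate 2, Sema3f over Nrp2 and Sema7a over Plxnc1 were added. A pair had to pass in both libraries, so leaving a library out could not lose a pair. Over protein-coding transcripts alone, an alternative chosen after seeing the data, 8 pairs were apart, with Plxna1 over Plxna3 (1.22) added as well. With that restriction the mean of Plxna3 went from 82.6 to 35.2 TPM and that of Plxna1 from 91.7 to 83.0 TPM. What lies behind the transcript shares was not tested. None of the 31 genes was called between the libraries under median-of-ratios factors, total counts, no count minimum or the second quantifier, and 8 passed without the size limit, which admits smaller ratios. Without that limit 7 passed under median-of-ratios factors and 8 under total counts, both with Sema4g and without Sema4c and Sema5a. The second quantifier gave 13, adding Plxna1, Plxna4, Plxnd1, Sema5b and Sema6a, where 31.0% of all genes it tested passed. The leading transcript was common to 24 genes, to 26 by share of counts and to 26 with either library alone. A library alone asks for fewer matches, so it could not lower this count. Sema4c over Plxnb2 was at -0.57 by the first quantifier and 0.27 by the second, and Plxnb1 over Plxnb2 at -0.05 and 0.62. Levels in the second table were a median of 1.48 times those of the first over the 31 genes and 1.51 times over detected protein-coding genes. All 31 mean levels moved beyond their spread with the second quantifier and with rescaling, and 24 over protein-coding transcripts. Rescaling raised all levels of a library by the same factor, so its moves say nothing of single genes. No paired analysis was possible because the series holds a single group. Depth limits Plxnb3, Sema3b and Sema3g, each with 75 to 109 counts in a library, and their transcript shares most of all.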
